A study of Mus musculus with 10 samples.

Results

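Potassium, sodium and calcium channel subunits were examined in the bulk RNA of 10 mouse hearts, 5 from control mice and 5 from iSOD2 mice. The members were chosen by gene symbol alone, as every gene whose symbol begins with Kcn, Cacna, Cacnb or Cacng, or reads Scn, a number and a or b, leaving out symbols that end in os or ot1. This rule found 136 of the 24537 genes of the table. Of these, 134 are subunit genes, and the other two, Kcnmb4os1 and Kcnmb4os2, are transcripts on the strand opposite to Kcnmb4 that the symbol rule also took. iSOD2 mice (Rosa26-rtTA2+/-;TRE-SOD2-shRNA+/-) carry a reverse tetracycline transactivator under the Rosa26 promoter, which is active throughout the body, and a tetracycline-responsive hairpin against Sod2 placed at the Col1a1 locus. Control mice (Rosa26-rtTA2+/-;TRE-SOD2-shRNA-/-) carry the transactivator without the hairpin. Both came from C57BL/6J dams fed doxycycline chow during pregnancy only, so all 10 mice were exposed to the drug before birth and none after. Hearts were taken at 6 weeks of age from a matched region of transverse sections. Among controls there were 3 males and 2 females, and among iSOD2 mice 2 males and 3 females. Litter A gave 2 hearts of either genotype and litter B gave 3. A heart is called by its genotype and its number in the labels. In bulk tissue, fewer cells of a type and less RNA per cell cannot be told apart.

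The cardiac action potential is the sum of currents through these channels. Sodium channels carry the upstroke, L-type calcium channels carry the plateau and trigger contraction, and several families of potassium channel end the plateau and hold the resting potential between beats. A channel is a complex of a pore subunit, which selects the ion, and accessory subunits, which set how many channels reach the membrane and how they open and close.

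Potassium pore subunits share a short run of codons, the selectivity filter, through which the ion passes. The letters were sought in frame in the coding sequence of 1 GENCODE M21 transcript a gene (GRCm38, the build of the files), in 10 forms chosen after the sequences had been seen, among them ACNGTNGGNTANGG, ACNATNGGNTANGG, ACNCTNGGNTANGG, ACNATNGGNTTNGG and AGNGTNGGNTTNGG. At least 1 form was found in 40 of 40 voltage-gated (Kv) pore subunits, in 15 of 15 inward rectifiers (Kir), in 12 of 14 two-pore-domain subunits (K2P, 11 of them with 2 or more matches) and in 8 of 12 calcium- or sodium-activated subunits. It was found in 0 of 13 Kv accessory subunits. The calcium- or sodium-activated subunits without a match were Kcnmb1, Kcnmb2, Kcnmb3 and Kcnmb4. Among all 21739 coding genes 132 held a form (0.607%), and 75 of these were Kcn genes. The runs below belong to potassium subunits on which the later comparisons turn, and capitals mark the matched codons. Each reads 5′ to 3′ on the coding strand.
Kcnd3, chr3:105459908-105658623 across an intron, plus strand: atgactACACTGGGATATGGAgacatg
Kcnk3, second pore, chr5:30622196-30622222, plus strand: ctcaccACCATCGGCTTCGGCgactat
Kcna5, chr6:126533739-126533765, minus strand: atgaccACTGTAGGCTACGGGgacatg
Kcna4, chr2:107296489-107296515, plus strand: atgacaACTGTGGGCTATGGGgacatg
Kcnj8, chr6:142566442-142566468, minus strand: caagtgACCATTGGGTTTGGAgggaga
A match is a description of the letters, and its absence says only that these letters are not in the transcript searched.

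Gene counts summed to between 16448090.5 and 24263085.5 a library, and channel subunits took 0.308% to 0.353% of them (control 0.341% ± 0.00865, iSOD2 0.322% ± 0.0146, SD, n = 5 each). Sod2, the target of the hairpin, had 9562 to 11019 normalized counts in controls and 10116 to 11305 in iSOD2 hearts (log2 fold change 0.03, SE 0.051, DESeq2 adjusted p = 0.806). Ventricular markers were high in all hearts, led by Myh6. Of 6 atrial markers, Myl7, Myl4 and Sln were high in 1 library: Myl7, an atrial myosin light chain, had 372 normalized counts in iSOD2 10 and 1.25 to 5.87 in the other hearts. Nppa was instead highest in iSOD2 8 (7592, against 1880 in iSOD2 10), and Nr2f2 was lowest in iSOD2 10 (175). Control 1 stood apart in liver transcripts, with a mean log2 level of 3.92 over 7 hepatocyte markers against 7.67 to 9.93 in the others. Over the genotypes, hepatocyte levels averaged 7.45 ± 2.03 for controls against 9.26 ± 0.571 for iSOD2 (SD over 5 mice, two-sided exact permutation p = 0.0238). Of 14 marker lists, 0 passed the adjustment (lowest adjusted p = 0.333), which 1 list alone could not have passed, since the smallest p that 5 against 5 hearts allow is 0.00794. Single markers called between genotypes were 2 of 5 for smooth muscle, 1 of 5 for pericytes and 1 of 7 for hepatocytes, beside 2.96% of all genes with an adjusted p. Markers of smooth muscle and of pericytes did not all go 1 way. Tagln had 313 to 381 normalized counts in controls and 361 to 483 in iSOD2 hearts, and Smtn 1980 to 2214 and 1720 to 2050. Rgs5 had 9388 to 12769 and 11152 to 13468, and Cspg4 1468 to 1746 and 1227 to 1363.

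Levels were compared between genes as RPKM, computed here from the counts by dividing by exon length and by the library's gene counts. By this measure 19 members lay above 10, 23 between 1 and 10, and 94 at or below 1. Of the 136, 9 had 0 counts in every library (Cacng2, Cacng3, Kcna10, Kcnh5, Kcnk9, Kcnk15, Kcnk16, Kcnmb2 and Kcnv1). A count of 0 allows up to 3 counts a library, so these transcripts were not detectable at this depth.

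Sodium and calcium channel subunits spanned a wide range of levels. The sodium channel alpha subunits Scn7a and Scn4a, known best as a sodium sensor and as the channel of skeletal muscle, stood at 10.2 ± 0.992 and 7.95 ± 1.51 (SD, n = 10 here and for the levels that follow). Of the sodium channel beta subunits, which steer gating and adhesion, Scn4b had 5.43 ± 0.789, Scn3b 0.673 ± 0.126 and Scn2b 0.152. In the L-type calcium channel, levels of the pore Cacna1c (43.6 ± 3.91), the alpha2delta subunit Cacna2d1 (47.7 ± 3.81) and the beta subunit Cacnb2 (33.5 ± 2.71) were of the same order. Cacna1d, the L-type pore of pacemaker cells, was far lower at 0.637 ± 0.0785. The T-type pores Cacna1g and Cacna1h, which open at more negative potentials, had 2.98 ± 0.539 and 1.51 ± 0.246. Cacng7, a member of the gamma family, was the only one of 8 above 1, at 1.24 ± 0.443.

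Potassium subunits spread over more of the range. The transient outward current, which gives the mouse action potential its fast early repolarization, rests on Kcnd2 and Kcnd3 with the accessory subunit Kcnip2. Kcnip2 had the highest level of all members, 62.0 ± 4.60, against 10.3 ± 1.09 for Kcnd2, 4.30 ± 0.360 for Kcnd3 and 1.74 ± 0.366 for Kcna4, the pore of a slower transient current. Of the slowly inactivating delayed rectifiers of mouse ventricle, Kcna5 was at 11.5 ± 2.99 and Kcna2 at 0.444. Kcnh2 and Kcnq1, the pores of the rapid and slow delayed rectifiers that dominate in larger mammals, had 19.2 ± 2.84 and 18.6 ± 0.935. Their accessory subunits were lower: Kcne1 had 3.84 ± 1.20, and Kcne2 had counts in only 4 libraries and did not pass the count filter. Kcng2, a Kv subunit that forms no channel alone, reached 28.9 ± 2.52.

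Of the inward rectifiers, Kcnj11, the pore of the ATP-sensitive channel of heart muscle, was highest at 38.8 ± 3.59, and Kcnj8, the ATP-sensitive pore typical of vessels, had 17.2 ± 1.59. Kcnj2 and Kcnj12, which hold the resting potential, stood at 20.7 ± 2.49 and 10.7 ± 1.42, and Kcnj4 at 0.106. Kcnj3 and Kcnj5, the acetylcholine-gated pair known best from atrium and sinus node, had 20.8 ± 1.36 and 22.0 ± 1.85. Both were present where atrial Myl7 was near 0, and the heart with the most Myl7, iSOD2 10, had 1995 normalized counts of Kcnj3, within the other hearts (1979 to 2559), and 1761 of Kcnj5, below the other hearts (1788 to 2323). Kcnk3, a background two-pore channel closed by acid, was among the highest members at 54.4 ± 4.78, with Kcnk6 (1.38 ± 0.192), Kcnk2 (0.660 ± 0.145) and Kcnk1 (0.0847) behind it. Among calcium-activated channels the small-conductance subunits Kcnn2 (4.54 ± 0.563), Kcnn1 (3.18 ± 0.182) and Kcnn3 (0.735 ± 0.196) exceeded Kcnma1 (0.0635), the large-conductance pore of smooth muscle.

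**Figure D1:**
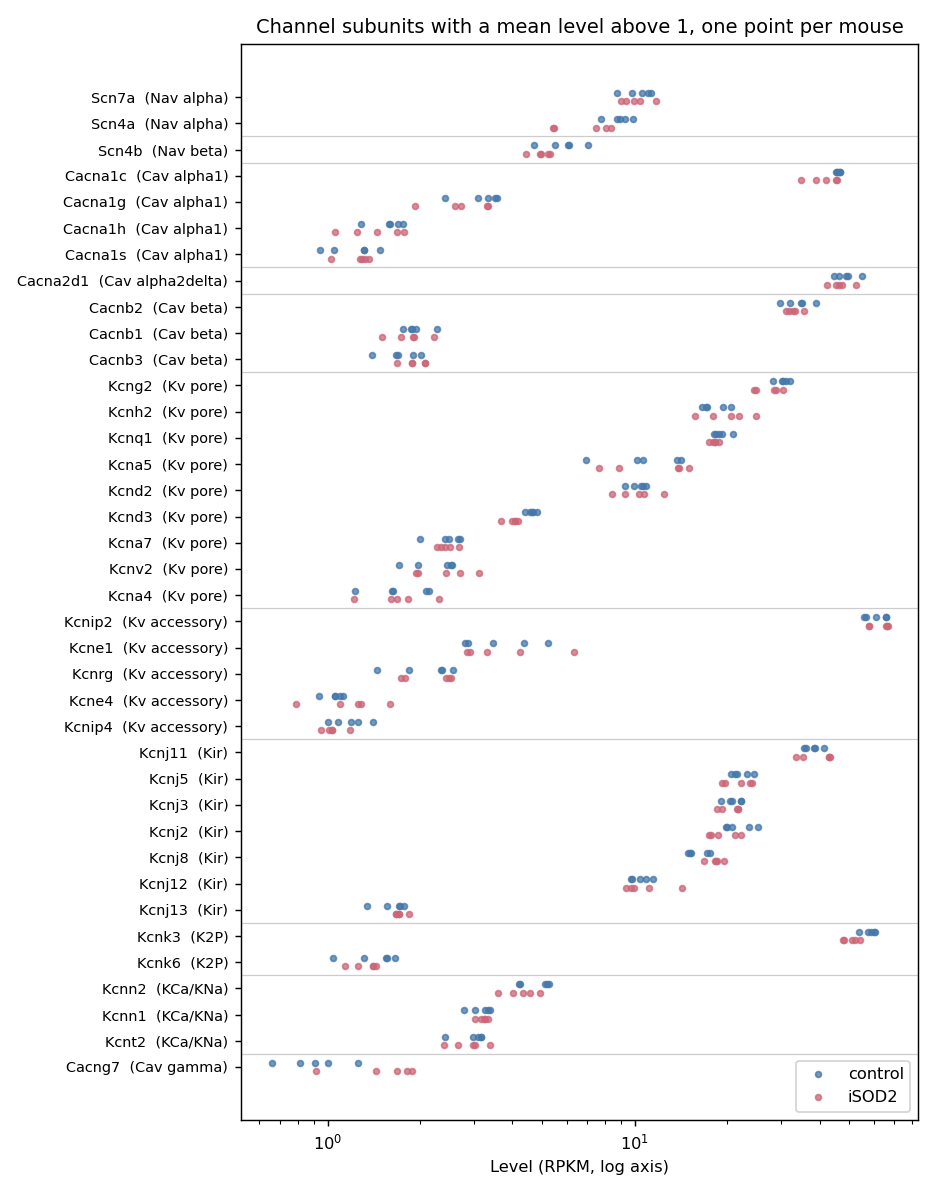
Level of 38 channel subunits with a mean above 1, 1 point a heart (blue control, red iSOD2), in RPKM on a log axis, grouped by role. Kcnip2 and Kcnk3 lie far to the right at 62.0 and 54.4, and for most subunits the blue and red points overlap.

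The spread between hearts differed among subunits. Over members averaging 50 or more normalized counts the median coefficient of variation was 12.6%, beside 9.19% over all genes of that level. Kcnn1 (5.91%) and Kcnq1 (5.92%) varied least and Kcna1, a Kv pore of nerve, varied most at 32.5%. For Kcnn1 the spread was no larger than the 6.10% that counting alone gives.

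The comparison of iSOD2 with control hearts asks whether loss of Sod2 before birth left a change in young adult hearts. A gene was called at an adjusted p of at most 0.05 and an absolute log2 fold change above 0.25 (Wald test of DESeq2 across all genes). Of 136 members, 110 passed the filter of 10 summed counts, 32 received an adjusted p, and 0 were called, beside 2.96% of all genes with an adjusted p (281 of 9479). At an unadjusted p under 0.05 there were 11 of 110 members, 2 higher and 9 lower in iSOD2 hearts, beside 13.2% of all genes. edgeR also called 0 members, and 0 genes in all.

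Kcnd3 (chr3:105452330-105674002), which carries the fast transient outward current, had the smallest p. Its normalized counts were 667, 719, 707, 680.5 and 676 in controls 1, 2, 3, 4 and 6, and 586, 624, 609, 608 and 524 in iSOD2 5, 7, 8, 9 and 10. Every iSOD2 heart lay below every control heart. The log2 fold change of -0.22 (SE 0.065, adjusted p = 0.0166) did not reach the 0.25 threshold. Non-overlap of the genotypes was seen in 2 of 52 members with a mean of at least 50 (3.85%), beside 4.95% of all such genes. Of its partners in the same current, Kcnd2 had 974.8 ± 69.2 in controls and 957.8 ± 140.2 in iSOD2 hearts (log2 fold change -0.03, SE 0.097), and Kcnip2 had 3050 ± 283 and 3089 ± 177 (0.02, SE 0.070).

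Kcnk3 (chr5:30588170-30625270), the acid-sensitive background channel, was the other member with an adjusted p under 0.05. It had 4746, 4846, 4735, 4164 and 4699 normalized counts in controls and 3987, 4409, 3735, 4122 and 3623 in iSOD2 hearts. Control 4 and iSOD2 7 overlap, and the remaining hearts separate by genotype. Its log2 fold change was also -0.22 (SE 0.065, adjusted p = 0.0173), under the threshold. Without the fold change threshold 6.09% of all genes with an adjusted p pass, and 2 of 32 members. Leaving out control 4 gave -0.26 and leaving out iSOD2 7 also gave -0.26, and in each case Kcnk3 was then called. These are the overlapping hearts, so leaving out either widens the difference by construction. With each of the 10 hearts left out in turn, the log2 fold change of Kcnk3 ran from -0.262 to -0.191. The highest adjusted p was 0.0974, and in 8 of the 10 runs Kcnk3 was not called. With edgeR the adjusted p was 0.0890 for Kcnd3 and 0.120 for Kcnk3.

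Scn4a (chr11:106318593-106349390), the skeletal muscle sodium pore, had the largest log2 fold change of the 52 members with a mean of at least 50. It had 1300, 1270, 1343, 1194 and 1042 normalized counts in controls and 1011, 1175, 734, 1100 and 709.8 in iSOD2 hearts. The 2 lowest hearts were the females iSOD2 8 and iSOD2 10. The log2 fold change was -0.38 (SE 0.133, adjusted p = 0.0623), and it was -0.32 (SE 0.101, adjusted p = 0.0343) with sex as a covariate, where Scn4a was called. Within males it was -0.20 (SE 0.091) and within females -0.45 (SE 0.167), with adjusted p = 0.285 and 0.415. Scn4b, the beta subunit tied to resurgent sodium current, had 635.8, 513, 529, 525.5 and 406 in controls and 427, 481, 384, 436 and 442 in iSOD2 hearts, with control 6 among the iSOD2 values. Its log2 fold change of -0.27 (SE 0.109, adjusted p = 0.120) became -0.35 (adjusted p = 0.0109) without control 6. Control 6 is the lowest control, so leaving it out widens the difference by construction. With each of the 10 hearts left out in turn, the log2 fold change of Scn4b ran from -0.348 to -0.186. The highest adjusted p was 0.324, and in 9 of the 10 runs Scn4b was not called.

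In the L-type current list, the 4 subunits averaging 50 or more normalized counts had lower means in iSOD2 hearts without passing the test. Of all genes at that level 51.5% had a log2 fold change below 0. Cacna1c had 12810, 13624, 12804, 12386 and 12247 normalized counts in controls and 12350, 12938, 11422, 10724 and 9222 in iSOD2 hearts. Only iSOD2 8, 9 and 10 lay below the control range, and the log2 fold change was -0.17 (SE 0.081, adjusted p = 0.198). The lowest, iSOD2 10, was the heart with the most Myl7. That heart was also the lowest iSOD2 heart for Kcnd3, Kcnk3, Scn4a, Cacna1g, Cacna1h and Kcnq1, though not for Scn4b. With 1 heart left out at a time the log2 fold change of Cacna1c ran from -0.225 to -0.108. Cacna2d1 and Cacnb2 differed by -0.09 (SE 0.085) and -0.08 (SE 0.076). The T-type pores Cacna1g and Cacna1h differed by -0.21 (SE 0.155) and -0.16 (SE 0.146). Cacng7, a gamma family member in neither the L-type nor the T-type list, had a higher mean in iSOD2 hearts. It had 16.3, 11.9, 21.3, 16.8 and 14.2 in controls and 28.7, 16.6, 31.8, 24.5 and 30.2 in iSOD2 hearts. The log2 fold change of Cacng7 was 0.72 (SE 0.291, unadjusted p = 0.0132). Its mean of 21.2 was too low for DESeq2 to give an adjusted p, and edgeR gave 0.161.

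The ATP-sensitive pores and the resting inward rectifier were not called. Kcnj8 had 929.7, 857, 782, 785 and 909 normalized counts in controls and 966, 990.5, 1016, 888 and 929 in iSOD2 hearts (0.17, SE 0.069, adjusted p = 0.127), and control 1 and control 6 lay within the iSOD2 range. Kcnj11 differed by 0.04 (SE 0.091). Kcnj2 differed by -0.19 (SE 0.095, adjusted p = 0.242), while Kcnj12, its partner in the same current, differed by 0.04 (SE 0.111). Kcnj3 and Kcnj5 differed by -0.05 each (SE 0.077 and 0.090).

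The remaining Kv subunits were not called either. Kcng2 differed by -0.17 (SE 0.083, adjusted p = 0.218) and Kcnq1 by -0.09 (SE 0.057, adjusted p = 0.370). Kcnh2 stood at 0.13 (SE 0.113), Kcna5 at 0.07 (SE 0.249) and Kcne1 at 0.05 (SE 0.216).

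**Figure D2:**
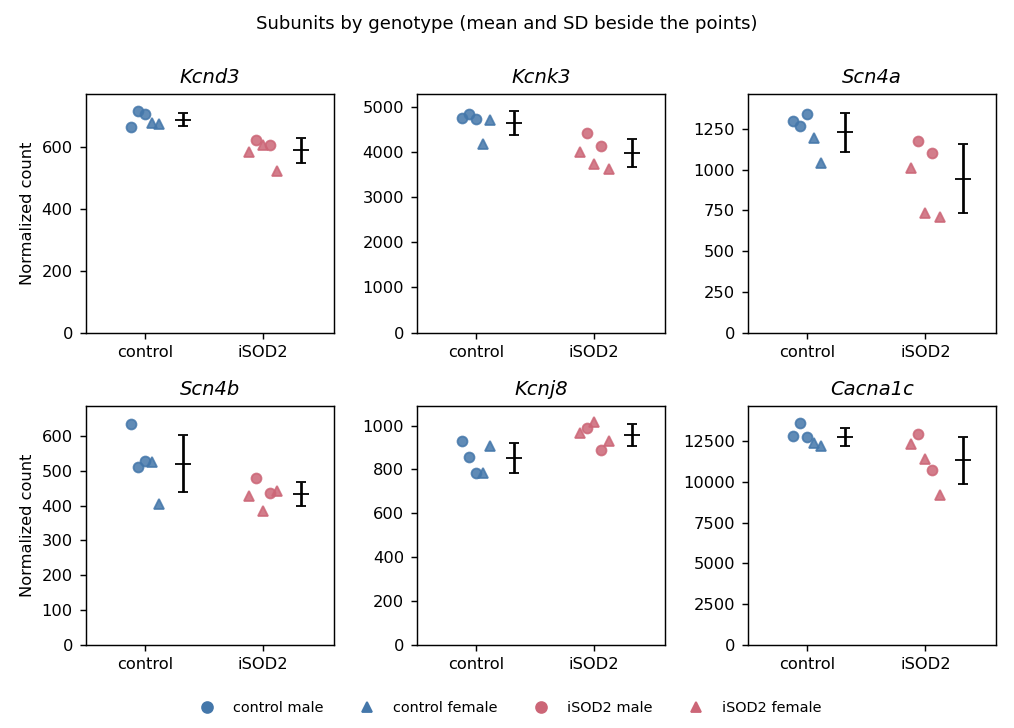
Normalized counts of 6 subunits in each heart by genotype, with circles for males, triangles for females, and the mean ± SD beside the points (linear axes from 0). Kcnd3 shows no overlap between genotypes, and the 2 lowest Scn4a values (734 and 709.8) are iSOD2 females.

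By role, the median log2 fold change over members with a mean of at least 50 was -0.06 for 5 sodium channel alpha subunits, -0.13 for 6 calcium channel alpha1 subunits, -0.03 for 15 Kv pores, 0.02 for 5 Kv accessory subunits and 0.04 for 7 inward rectifiers. By current, and again over members with a mean of at least 50, the fold change was below 0 in 4 of 4 L-type subunits, in 4 of 5 sodium current subunits and in 0 of 2 ATP-sensitive pores. It was below 0 in 3 of 4 transient outward, 1 of 2 resting inward rectifier and 2 of 2 T-type subunits. Of all genes at that mean 51.5% were below 0, with a median of -0.08 in the longest of 5 exon length bins. The L-type list also had a median of -0.08, at a median exon length of 8035 bp. The fifth L-type list member, Cacng6, lay under that mean, with 8.36 to 20.7 normalized counts in controls and 7.06 to 24.9 in iSOD2 hearts. The 4 calcium channel beta subunits, all at or above that mean, had a median of 0.02, with 2 higher and 2 lower. Each role and each current had 0 called members.

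**Figure D3:**
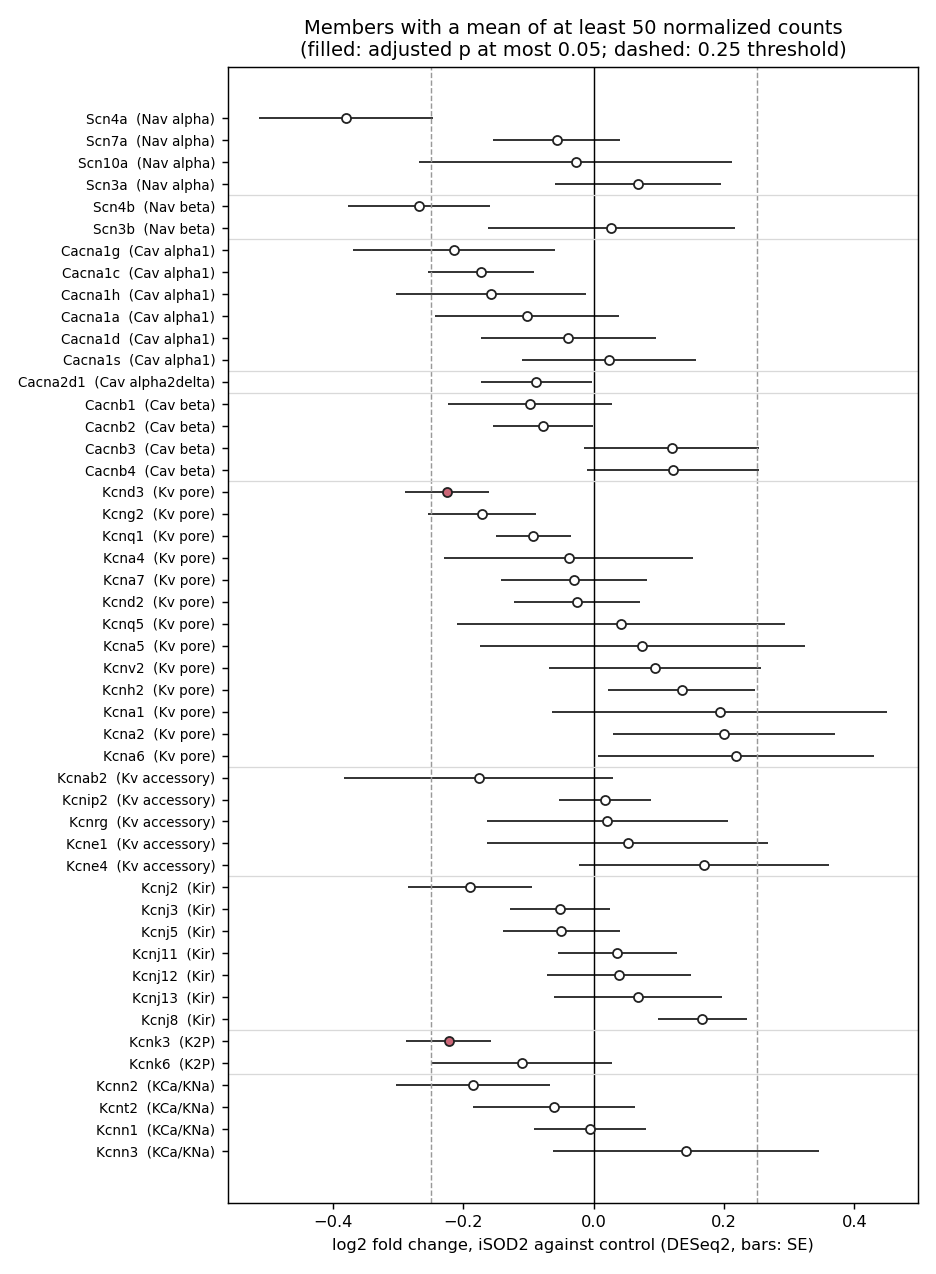
Log2 fold change of iSOD2 against control for 48 subunits averaging 50 or more normalized counts, with bars for the SE, ordered within roles. Filled points mark the 2 subunits with an adjusted p of at most 0.05, Kcnd3 and Kcnk3, both inside the dashed lines at 0.25.

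Fold changes in these libraries moved with exon length, and channel transcripts are long. The 12151 genes at a mean of 50 or more were divided by exon length into 5 bins of equal size. Their median log2 fold change ran from 0.11 in the bin of the shortest exons, through 0.04, -0.01 and -0.05, to -0.08 in the longest bin. Of the 52 members, 23 lay in the longest bin, 14 in the next, and 10, 4 and 1 in the shorter bins. Their median exon length was 4456.5 bp against 2997 bp for all genes. The median log2 fold change of the members was -0.04, with 59.6% lower in iSOD2 hearts, beside -0.005 and 51.5% for all genes. With the length trend removed the median of the members was 0.02 with 44.2% lower, beside 0.001 and 49.5% for all genes. The SD of the members' median between mice of a genotype was 0.0414. That SD describes single hearts and is not the error of a difference between groups. Whether either median of the members differed from 0 was not tested. Kcnk3 then stood at -0.19 on the log2 scale (SE 0.060, adjusted p = 0.0742), Kcnd3 -0.14 (SE 0.059, adjusted p = 0.259) and Scn4a -0.30 (SE 0.127, adjusted p = 0.257).

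**Figure D4:**
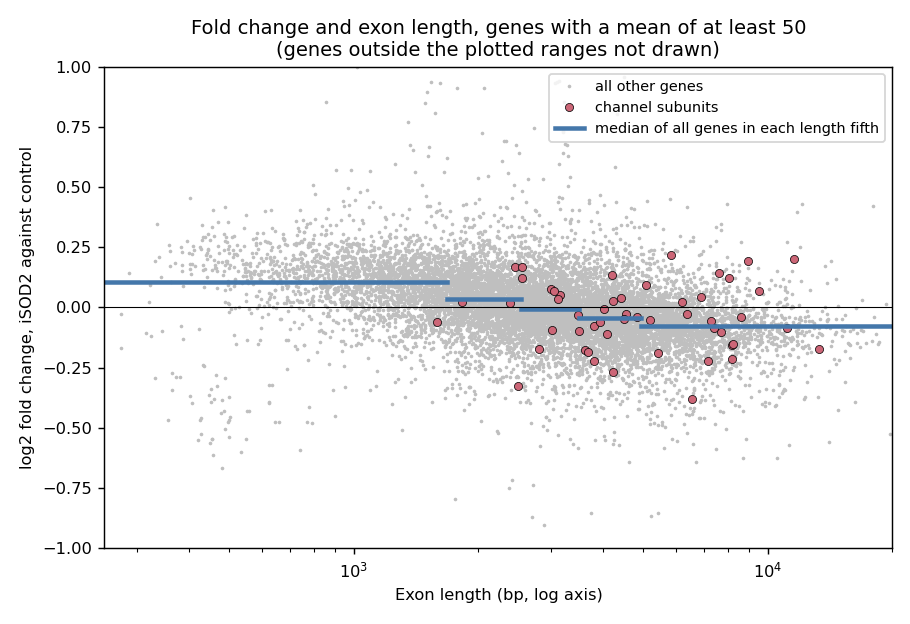
Log2 fold change of iSOD2 against control and exon length in bp (log axis) for genes averaging 50 or more normalized counts, grey for other genes and red for channel subunits. Blue bars are the medians of all genes in each of 5 length bins and step down from 0.11 to -0.08, and most red points lie to the right, where the bars are below 0.

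Between the sexes 0 of 108 members with an adjusted p were called (DESeq2 with genotype as a covariate), beside 0.420% of all genes. edgeR also called 0 (0.164% of all genes), and 8 members had an unadjusted p under 0.05, beside 6.60% of all genes. Cacna2d1, the alpha2delta subunit of the L-type channel, had 7507 to 9015 normalized counts in 5 males (median 7680) and 6421 to 6979 in 5 females (median 6865). Every female lay below every male, and the log2 fold change of -0.23 in females (SE 0.059, adjusted p = 0.0261) was under the threshold. Without the threshold 0.524% of all genes pass. Kcnn3, a small-conductance calcium-activated subunit, was the second member without overlap, at 74.2 to 113 in males and 115 to 160.0 in females (0.52, SE 0.166, adjusted p = 0.164). Sexes did not overlap in 1.94% of all genes of that level. Scn4a had 1100 to 1343 in males and 709.8 to 1194 in females (-0.35, SE 0.101, adjusted p = 0.0824), and it was called with litter as a further covariate (-0.40, adjusted p = 0.0291).

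The genotype-by-sex interaction, which asks whether the sexes differed in their response to genotype, called 0 of 110 members and 0 genes in all with DESeq2, and 0 with edgeR. An unadjusted p under 0.05 was found for 2 members, beside 1.18% of all genes. Of these Kcna1 had the smaller p (-1.30, SE 0.427, unadjusted p = 0.00232), with an adjusted p of 1. Kcna1, the nerve Kv pore, had 109, 143, and 70.2 in control males and 140.3 and 206 in control females, against 184 and 203.5 in iSOD2 males and 161, 133 and 84.8 in iSOD2 females.

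The litters were compared with genotype as a covariate. Of 86 members with an adjusted p, 4 were called, beside 3.50% of all genes (548 of 15654). Of these 2 were higher in litter B and 2 lower, beside 2.52% and 0.977% of all genes. At an unadjusted p under 0.05 there were 15 of 110 members, beside 13.0% of all genes. The litters also differ in sex, with 3 males and 1 female in A and 2 males and 4 females in B.

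Kcna5 (chr6:126532551-126535555), the pore of an ultrarapid delayed rectifier, had the largest difference in terms of its error. In litter A it had 441, 673, 569.8 and 471 normalized counts in control 1, control 2, iSOD2 7 and iSOD2 8. Litter B had 659.5, 838 and 864 in controls 3, 4 and 6, and 849.5, 937 and 833 in iSOD2 5, 9 and 10. Only control 3, at 659.5, fell below the highest heart of litter A. The log2 fold change of litter B against litter A was 0.63 (SE 0.117, adjusted p = 1.77e-05), and Kcna5 was called in every alternative run. With sex as a further covariate it was 0.65 (SE 0.123, adjusted p = 2.81e-05), and with edgeR the adjusted p was 0.0144. Of the 12 other tested genes within 1 Mb, 9 had a mean of at least 50 and 0 were called, beside 3.50% of all genes. They include its relatives Kcna1 (0.03, SE 0.351) and Kcna6 (0.22, SE 0.213). Rad51ap1, with a mean of only 19.3, had the larger fold change of 1.09 (SE 0.355, DESeq2 adjusted p = 0.0517). Genes this few cannot show whether the difference is confined to Kcna5. The mean log2 level of 5 smooth muscle markers was 9.33 to 9.47 in litter A and 9.43 to 9.74 in litter B, and of the 5 Acta2 had 3740 to 4730 and 6108 to 9445 normalized counts. Myh11 (1171 to 1591 and 1061 to 1611) and Tagln (313 to 483 and 313 to 468) overlapped between the litters. Their part in the difference of Kcna5 was not tested.

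Kcnj15, an inward rectifier of epithelia, had 28.0, 38.2, 24.9 and 22.9 normalized counts in litter A and 55.2, 51.4, 48.6, 45.6, 43.1 and 52.8 in litter B. The litters did not overlap, and the log2 fold change was 0.81 (SE 0.222, adjusted p = 0.0109). Kcna4 had 221, 224, 174 and 229 in litter A and 162, 120.5, 161, 159.6, 184 and 118 in litter B (-0.49, SE 0.144, adjusted p = 0.0192), with iSOD2 7 and iSOD2 9 crossing. Kcnn2 had 411, 421, 359.5 and 370.4 in litter A and 387, 314, 316, 325, 306 and 264 in litter B (-0.29, SE 0.092, adjusted p = 0.0345), with control 3 among the hearts of litter A. edgeR, which called 2.06% of all genes, called Kcna5 and Kcnj15 and neither of the other two. With sex as a further covariate Kcna5 alone was called, and Kcnj15, Kcna4 and Kcnn2 had adjusted p = 0.0547, 0.112 and 0.236. Kcnj11, the ATP-sensitive pore, had an adjusted p of 0.0358 at a log2 fold change of -0.22, under the threshold, as 1 of 5 members that pass without it (4.31% of all genes). Kcnt2, a sodium-activated pore, was the only member with a mean of at least 50 whose litters did not overlap (-0.28, SE 0.106, adjusted p = 0.134), beside 4.56% of all such genes.

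**Figure D5:**
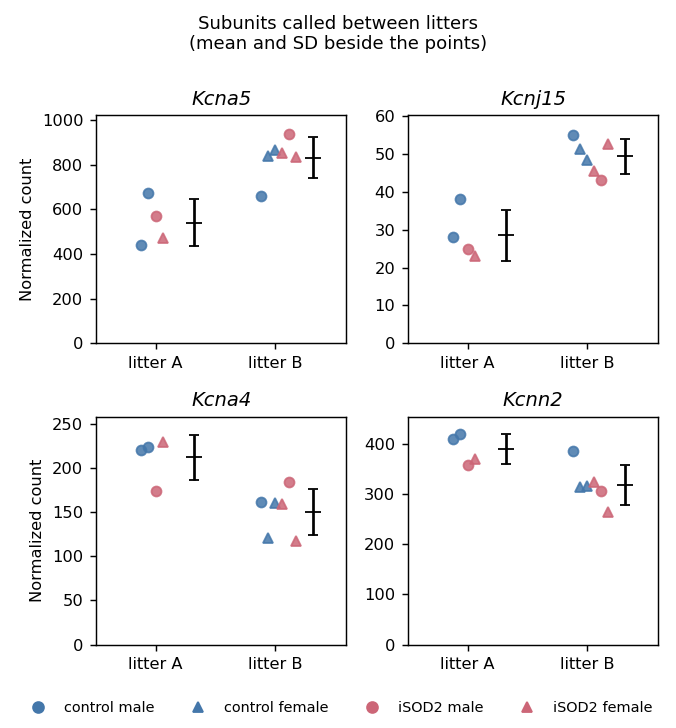
Normalized counts of the 4 subunits called between litters, in each heart by litter, with blue for control, red for iSOD2, circles for males, triangles for females, and the mean ± SD beside the points (linear axes from 0). Kcna5 and Kcnj15 are higher in litter B and Kcna4 and Kcnn2 lower.

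Genes that work beside these channels were read from the same genotype comparison. A list of 51 partners (pacemaker channels, gap junctions, anchoring proteins, pumps, exchangers and transcription factors) had 48 tested and 35 with an adjusted p, of which 0 were called higher and 2 lower in iSOD2 hearts, beside 1.27% and 1.70% of all genes. Gja1, the ventricular gap junction protein connexin 43, differed by -0.29 (SE 0.087, adjusted p = 0.0225). None of the partners was called by edgeR, by limma voom, with the length trend removed or with sex as a covariate. Over the 48 the median was -0.05 with 33 lower. The 12151 genes averaging 50 or more normalized counts had a median of -0.005, with 51.5% lower. Their medians also fell with exon length, from 0.11 in the shortest bin to -0.08 in the longest. This length trend was left in the partner median, and whether that median differed from other genes was not tested. Among the partners, Nos1ap, an adaptor known from QT interval studies, had -0.47 (SE 0.144, unadjusted p = 0.00115) with a mean too low for an adjusted p. Abcc9 and Abcc8, the sulfonylurea receptors that pair with Kcnj8 and Kcnj11, differed by -0.06 (SE 0.070) and -0.14 (SE 0.070). Hcn4 and Hcn2, the pacemaker channels, differed by -0.20 each (SE 0.195 and 0.112).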

How the data were processed

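RNA was sequenced from 10 hearts. Per the paper's methods and the labels, libraries of ribosome-depleted total RNA were trimmed with Trim Galore, aligned to mm10 with STAR and summed over exons with HOMER, keeping 1 transcript a gene, with no strand option stated. The deposited values are estimated counts in steps of 0.5 that the authors had not normalized, and the deposited table gives another value, the exon length of each transcript in bp. Counts were rounded, genes with under 10 summed counts were left out (17728 kept), and all genes were fitted with DESeq2 1.42.0 in R 4.3.3 (size factors by median of ratios, independent filtering left at its default of 0.1, Benjamini-Hochberg adjustment). Normalized counts are counts divided by size factors. Genotype was tested without a covariate, sex and litter with genotype as a covariate, and the interaction with genotype and sex. Alternatives were edgeR 4.0.16 quasi-likelihood, limma 3.58.1 voom, TMM scaling, other filters, covariates, subsets, left-out hearts and removal of a lowess trend on exon length (span 0.3). The fits were tested on simulated data. Marker lists (mean of log2(normalized count + 1)) were compared by two-sided exact permutation over 252 arrangements, whose smallest p is 0.00794.

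Named subunits were those called in any comparison, the 10 with the smallest genotype p and those without overlap between genotypes (both at a mean of at least 50), those of the current lists, and the 10 with the highest level per exon length. Other members are named where a count, gap or tested difference is given, after their values were seen. The members and lists were chosen with earlier results of these data known. The mice of a group were separate animals of both sexes and of 2 litters. Even the most alike libraries differed beyond counting noise (chi-square per degree of freedom 5.45). Intervals for single libraries cover counting error only. Without strand, exons shared with a gene on the other strand make Kcnj13 (49.1% of its exon bases, Gigyf2), Kcna6 (39.6%, Gm26673) and Kcnj3 (31.1%, Gm26794) uncertain. Some members and partners are not reported here by name, and counts over the lists include them.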

Additional observations from a re-analysis of the deposited data

Results flagged for a closer look

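Each genotype's 5 hearts were searched for a value far from the rest in 43 subunits, 86 groups in all. Chance would give about 4.3 such values, and 3 were found. Kcnk3, the acid-sensitive background channel, had 4164 normalized counts in control 4 against 4699 to 4846 in the other controls. Kcnn1, a small-conductance calcium-activated subunit, had 232 in control 3 against 267 to 278.5 in the other controls. Kcne2, an accessory subunit, had 2.53 in iSOD2 5 and 0 in the other iSOD2 hearts, which is within the 3 counts that a count of 0 allows.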

How the results depend on the processing

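Of 381 alternative values computed for single named subunits 0 reversed a direction, 345 kept their side of the threshold, 24 lost it and 12 passed it. Over all 52 members averaging 50 or more counts, 59.6% were lower in iSOD2 hearts, and 44.2% with the length trend removed. Members called between genotypes (0) became 1 with sex, with litter and with both as covariates (Scn4a each time) and 2 without the fold change threshold (Kcnd3 and Kcnk3), and ran from 0 to 2 when 1 heart was left out (2 without control 6 and without iSOD2 7, 1 without control 4 and without iSOD2 9). Between sexes, 0 became 1 with litter and genotype as covariates (Scn4a) and 1 without the threshold (Cacna2d1), with 0 to 1 when 1 heart was left out (1 without iSOD2 5). Between litters, 4 became 2 with edgeR, 2 with limma voom and 1 with sex and genotype as covariates, with 1 to 7 when 1 heart was left out: 1 without control 1 or iSOD2 10, 2 without control 2, iSOD2 7 or iSOD2 8, and 7 without iSOD2 5. Partner genes called (2) became 0 with edgeR, limma voom, the length trend removed, sex as a covariate, sex and litter as covariates or females alone, and 1 in litter A alone (Gja1), litter B alone (Sgk1, higher) or males alone (Gja1), with 0 to 3 when 1 heart was left out. The members' median log2 fold change of -0.0384 became 0.0161 with the length trend removed and ran from -0.0607 to -0.0149 when 1 heart was left out. For the runs with a left-out heart or added covariates, the share of all genes called is not given beside these counts. Such counts therefore do not set the members against other genes. The cause of these moves was not tested. The interaction stayed at 0 called members and the marker lists at 0 in all alternatives run. No paired analysis was made, since the replicate numbers are those of single mice and define no pairs. Litter, which both genotypes share, was taken as a covariate in alternative runs instead. Depth limits what can be said of the members at or near 0 counts.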
